A study of Mus musculus with 6 samples.

Results

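Smad3 and 6 other genes of the transforming growth factor beta (TGF-beta) pathway were followed across 3 clonal mouse B-cell lines, named Abl.2, Abl.3 and Abl.4. The 7 genes, of 37315 in the abundance table, were picked by name. They were chosen with earlier results of these data known, as were the pathway and marker lists below. The p-values and counts given for these genes and lists are therefore not those of a blind choice. Smad3 was included for a maternal share of its RNA that set Abl.2 apart from the other lines, so its shares in every line and its abundance in any pair with Abl.2 are given as a description, with no test. Each line is 1 immortalised clone from an F1 animal of the cross 129S1/SvImJ x CAST/EiJ. The labels give the sex as female for Abl.2, male for Abl.3 and female for Abl.4. All lines were in the control arm, in growth medium with 1% DMSO, and live cells were taken on day 2 after a density gradient. Each line had 2 libraries, labelled as library preparation replicates, so p-values measure the spread between preparations from 1 clone and not between clones or cultures. An F1 animal inherits a maternal and a paternal copy of each autosome that differ at SNPs. The maternal share is the maternal fraction of the reads assigned to either allele. All lines came from the same cross, so the parent of origin and the strain of an allele cannot be told apart. In Abl.2 the median share was 0.998 over chromosome 4 and 0.337 over chromosome 10, where no member lies.

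TGF-beta ligands are secreted in a latent form and, once released, bring type II and type I receptor kinases together. The type I receptor phosphorylates Smad2 and Smad3, which join Smad4 and act on genes in the nucleus, while Smad7 and the Ski family dampen the signal. In B-lineage cells the pathway is known for restraining growth and for directing class switching.

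Promoters of 3 members are shown because their shares took 3 different forms: a bias in 1 clone (Smad3), a bias in every clone (Tgfb1) and near balance (Tgfbr2). The sequences are from RefSeq (GRCm38.p6), run from 250 bases before to 50 bases after the gene start, read 5′ to 3′ on the gene's strand, and have every CG in capitals, since CG is the dinucleotide that carries DNA methylation in mammals and the series concerns methylation and allelic expression. For Tgfbr2 the gene start used lies 3 bases from that in the authors' coordinates. No methylation data were analysed here.
Smad3, chr9:63757945-63758244, minus strand: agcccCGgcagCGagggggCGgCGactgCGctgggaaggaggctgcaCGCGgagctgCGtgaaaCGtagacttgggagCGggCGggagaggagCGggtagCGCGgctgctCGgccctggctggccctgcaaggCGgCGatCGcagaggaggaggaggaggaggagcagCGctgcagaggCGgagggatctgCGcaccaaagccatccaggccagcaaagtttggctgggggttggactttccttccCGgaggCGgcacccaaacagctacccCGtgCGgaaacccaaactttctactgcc
Tgfb1, chr7:25686752-25687051, plus strand: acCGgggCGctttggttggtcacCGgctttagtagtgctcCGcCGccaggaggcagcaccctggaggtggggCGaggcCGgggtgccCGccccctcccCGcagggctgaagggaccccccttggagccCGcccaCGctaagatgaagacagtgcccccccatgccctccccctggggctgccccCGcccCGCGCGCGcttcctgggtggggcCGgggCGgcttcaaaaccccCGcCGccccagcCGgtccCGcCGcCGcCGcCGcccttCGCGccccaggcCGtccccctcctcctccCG
Tgfbr2, chr9:116175314-116175613, minus strand: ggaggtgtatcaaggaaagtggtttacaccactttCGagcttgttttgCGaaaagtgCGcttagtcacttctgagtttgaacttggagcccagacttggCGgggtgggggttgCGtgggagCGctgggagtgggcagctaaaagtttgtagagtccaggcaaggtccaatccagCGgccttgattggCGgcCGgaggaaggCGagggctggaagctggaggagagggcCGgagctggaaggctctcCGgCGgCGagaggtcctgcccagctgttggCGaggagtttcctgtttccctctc
The letters CG (which read the same on both strands) occurred 25 times in the Smad3 promoter, 30 times in that of Tgfb1 and 15 times in that of Tgfbr2. The median over 32851 promoters of this length was 7. At least as many were present in 18.4% of promoters for Smad3, 11.7% for Tgfb1 and 34.6% for Tgfbr2.

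On the authors' coordinates (GRCm38), Smad3 (ENSMUSG00000032402) lies on chromosome 9 from 63646767 to 63757994 on the minus strand. Tgfbr2 (ENSMUSG00000032440) is on the same chromosome from 116084293 to 116175360, also on the minus strand. Tgfb1 (ENSMUSG00000002603) lies on chromosome 7 from 25687002 to 25705077, and Skil (ENSMUSG00000027660) on chromosome 3 from 31095058 to 31122577, both on the plus strand. The other 3 members share chromosome 18, within a span of 2.67 Mb. Smad4 (ENSMUSG00000024515) runs from 73639009 to 73703780 on the minus strand. Smad7 (ENSMUSG00000025880) runs from 75367529 to 75395935 and Smad2 (ENSMUSG00000024563) from 76241580 to 76305731, both on the plus strand. All 7 are annotated as protein-coding, and Smad4 overlaps 1 processed pseudogene on the opposite strand. Strand use in the counting was not stated, so reads of that overlap cannot be told apart. No other member overlaps an annotated gene.

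Depth was similar between libraries, with 18362319 to 26881211 allelic counts each. The lines expressed the B-lineage list: the summed level of 11 markers was 12595.8 to 13983.7 TPM (transcripts per 1000000, scaled to gene length and library total, which keeps no depth), although Ms4a1 was below 1 TPM in Abl.2 and Abl.4. Single B-lineage markers varied more than the sum. In Abl.2, Abl.3 and Abl.4, Pax5 had means of 226.3, 60.1 and 160.6 TPM and Rag1 23.3, 4.865 and 11.4 TPM. Cd22 had 22.3, 19.4 and 92.4 TPM. All 5 T-cell and all 5 fibroblast markers were below 1 TPM, with sums of at most 0.07 TPM. The 4 erythroid markers summed to at most 0.92 TPM. The 6 myeloid markers summed to 158.96 to 193.21 TPM for Abl.2, 74.98 to 97.2 for Abl.3 and 77.88 to 89.42 for Abl.4. Most of it was Lyz2, with means of 175.2, 85.1 and 76.6 TPM, while Itgam had 0.43, 0.845 and 6.82 TPM in the same order, with Cd14 and Adgre1 at 0 in every library and Csf1r at most 0.30 TPM. Of the 3 NK-cell markers Ncr1 was at 0 in every library, and the sum, nearly all Klrb1c, was 14.14 to 16.13 TPM for Abl.2, 0.79 to 1.07 for Abl.3 and 5.48 to 6.83 for Abl.4.

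Smad3, the receptor-activated Smad for which the set was assembled, was abundant in Abl.2 and low in the other lines. Its level was 145.72 and 137.85 TPM in the libraries of Abl.2, 13.23 and 10.59 TPM in Abl.3, and 16.77 and 16.19 TPM in Abl.4. No library of one line reached the range of another. The mean in Abl.2, 141.8 ± 5.56 TPM (SD, n = 2), was 11.9 times that in Abl.3 (11.9 ± 1.87) and 8.60 times that in Abl.4 (16.5 ± 0.41). In bulk RNA a larger share of cells expressing a gene and more RNA per cell cannot be told apart. Lyz2 and Klrb1c were also highest in Abl.2, whereas Itgam was lowest there. Mpo had means of 0.44, 0.115 and 0.015 TPM in Abl.2, Abl.3 and Abl.4, and Csf1r 0.015, 0.02 and 0.175 TPM. For both, the libraries of Abl.2 and Abl.3 overlapped. The part of these markers in the Smad3 difference was not tested.

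The allelic counts of Smad3 were unequal in Abl.2 and close to equal in the other lines. In Abl.2 the libraries had 27645 maternal against 1513 paternal and 31114 against 1770 counts. In Abl.3 they had 1235 against 1635 and 1095 against 1175, and in Abl.4 1489 against 1641 and 1386 against 1533. The maternal share was 0.947 ± 0.0014 for Abl.2, 0.456 ± 0.037 for Abl.3 and 0.475 ± 0.00064 for Abl.4 (SD, n = 2). The authors' deposited table gives a maternal fraction of 0.95 (limits 0.94 to 0.95), 0.45 (0.39 to 0.52) and 0.48 (0.41 to 0.54) in the same order.

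Multiplying each library's TPM by its allele share split the level of Smad3 between alleles. The maternal part was 134.3 ± 5.46 TPM for Abl.2, 5.40 ± 0.41 for Abl.3 and 7.83 ± 0.21 for Abl.4. The paternal part was 7.49 ± 0.10, 6.51 ± 1.45 and 8.65 ± 0.20 TPM (SD, n = 2). The maternal part in Abl.2 was thus 24.9 times that in Abl.3 and 17.1 times that in Abl.4, while the paternal part was 1.15 and 0.866 times theirs. The paternal ranges of Abl.2 and Abl.3 overlapped, and those of Abl.2 and Abl.4 did not. Scaled instead to the allelic total of each library, which uses no TPM, maternal CPM (counts per 1000000 allelic counts) were 1188 ± 42.7, 60.9 ± 1.78 and 71.9 ± 3.64, and paternal CPM 66.2 ± 0.57, 73.1 ± 12.9 and 79.3 ± 3.81. On both scales, then, the high level in Abl.2 lay in the maternal allele, and the paternal allele stood near the level of either allele in the other lines.

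**Figure D1:**
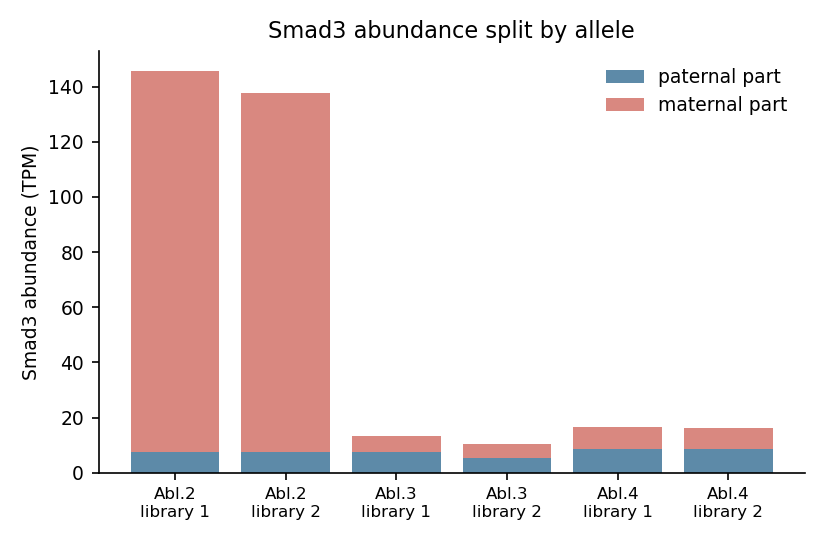
Stacked bars give the abundance of Smad3 in TPM for each of the 6 libraries, split into a maternal and a paternal part by the library's allele share. The paternal part is of similar height in every library, and the maternal part averages 134.3 TPM in Abl.2 against 5.40 in Abl.3 and 7.83 in Abl.4.

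The test that the choice of Smad3 leaves free is its abundance in Abl.3 against Abl.4. Abundance was compared as log2(TPM + 1), where the added 1 shrinks differences at low levels. The difference was -0.44 ± 0.12 (SE), with an adjusted p of 0.0273 by limma with Benjamini-Hochberg adjustment over 11003 genes, and both libraries of Abl.3 were below both of Abl.4. The median of all genes in that pair was -0.15. The call was lost without any 1 of 5 libraries, the exception being replicate 1 of Abl.3, with adjusted p from 0.0586 to 0.118. It was also lost after quantile normalization (-0.17, adjusted p 0.330), with edgeR on summed allelic counts (-0.16, adjusted p 0.238) and with no filter on low values (adjusted p 0.0517).

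Genes around Smad3 did not share its pattern of shares. Distances here are between the lowest coordinates of the genes, whatever their strand. Of 16 genes within 1 Mb, 10 had at least 20 allelic counts in every library, the minimum used throughout. Their maternal shares ranged from 0.428 to 0.578 for Abl.2 (median 0.483), from 0.391 to 0.567 for Abl.3 and from 0.419 to 0.587 for Abl.4. The highest in Abl.2 was that of Pias1, with an SD of 0.122 (n = 2) and 84 to 156 counts per library. Lctl, with 87 to 103 counts, had mean levels of at most 0.04 TPM. Its coordinates overlap those of Zwilch, also among the 10, and which gene its reads came from was not tested. Aagab, at 44.1 kb by this measure, had a share of 0.436 ± 0.0020 for Abl.2, 0.490 ± 0.033 for Abl.3 and 0.510 ± 0.0094 for Abl.4 (SD, n = 2). The inhibitory Smad6, at 306 kb, had 0 to 7 counts per library and no share is given. Over 503 genes of chromosome 9 the median share was 0.499 for Abl.2, 0.499 for Abl.3 and 0.501 for Abl.4. The medians of chromosome 3 (382 genes) and chromosome 7 (641 genes) lay between 0.492 and 0.505 in every line, and those of chromosome 18 (242 genes) were 0.497, 0.458 and 0.502.

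**Figure D2:**
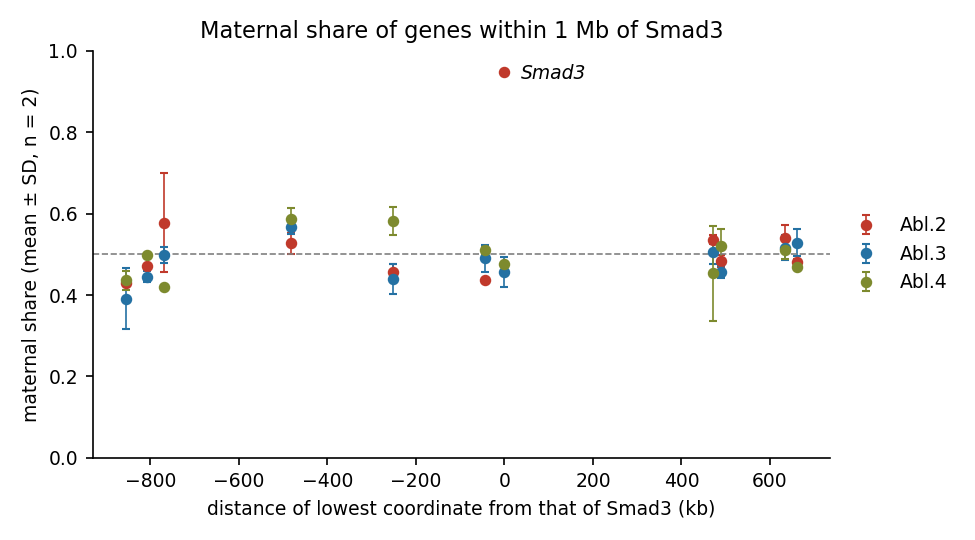
Points give the maternal share (0 to 1, mean ± SD, n = 2) of Smad3 and of 10 genes within 1 Mb, by distance of their lowest coordinate from that of Smad3 in kb, in 3 colours for the lines. Smad3 in Abl.2 is at 0.947, and the neighbours lie between 0.391 and 0.587.

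Tgfb1, which encodes the prototype TGF-beta ligand, was biased to the maternal allele, and so to the same strain, in all 3 lines. The libraries of Abl.2 had 4563 maternal against 381 paternal and 4603 against 477 counts. Those of Abl.3 had 2928 against 493 and 2273 against 388, and those of Abl.4 had 4882 against 590 and 4670 against 674. The mean shares were 0.915 ± 0.012, 0.855 ± 0.0012 and 0.883 ± 0.013 (SD, n = 2), with no overlap between lines. In edgeR's quasi-likelihood fit, with p-values adjusted over 8702 genes by the Benjamini-Hochberg method, the log2 ratio of maternal to paternal counts was 3.42 ± 0.092 (SE; adjusted p 1.49e-10) in Abl.2. It was 2.56 ± 0.091 (adjusted p 5.21e-09) in Abl.3 and 2.92 ± 0.088 (adjusted p 1.51e-09) in Abl.4.

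The bias of Tgfb1 also differed between lines. By the same edgeR fit, its log2 allele ratio was higher in Abl.2 than in Abl.3 by 0.86 ± 0.13 (SE; adjusted p 3.56e-04) and higher than in Abl.4 by 0.50 ± 0.12 (adjusted p 0.0131). The second call was lost without replicate 1 of Abl.2 (adjusted p 0.135) or replicate 2 of Abl.4 (0.0869). Between Abl.3 and Abl.4 the difference of -0.36 ± 0.13 did not pass (adjusted p 0.0865). With the replicate number as a block, edgeR called it narrowly (-0.36, adjusted p 0.04995), and without replicate 2 of Abl.4 it was -0.49. The paternal part of the TPM was 11.6 ± 0.23 for Abl.2, 14.9 ± 2.47 for Abl.3 and 21.7 ± 1.30 for Abl.4, and the maternal part 125.2 ± 16.6, 88.2 ± 15.4 and 164.4 ± 10.8 (SD, n = 2). The maternal allele was thus the larger source in each line.

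The level of Tgfb1 was 148.4 and 125.22 TPM for Abl.2, 115.85 and 90.54 for Abl.3, and 192.76 and 179.35 for Abl.4. The lines did not overlap. By limma, Tgfb1 was lower in Abl.3 than in Abl.4 by a log2 difference of -0.85 ± 0.14 (SE; adjusted p 0.00479). The differences between Abl.2 and Abl.3 (0.41 ± 0.14, adjusted p 0.0574) and between Abl.2 and Abl.4 (-0.44 ± 0.14, adjusted p 0.0503) did not pass the threshold of 0.05. With the replicate number as a block both passed (adjusted p 0.00824 and 0.00697).

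Tgfbr2, the type II receptor that binds the ligand, was near balance and varied in level. It was at 52.05 and 52.9 TPM for Abl.2, 32.22 and 31.3 for Abl.3, and 66.45 and 61.62 for Abl.4. No ranges overlapped. By limma with Benjamini-Hochberg adjustment, Tgfbr2 was higher in Abl.2 than in Abl.3 by 0.71 ± 0.082 on the log2 scale (SE; adjusted p 0.00107) and lower in Abl.3 than in Abl.4 by a difference of -0.99 ± 0.082 (adjusted p 3.22e-04). The difference between Abl.2 and Abl.4, -0.28 ± 0.082 (adjusted p 0.0401), was no longer called without any 1 library other than replicate 2 of Abl.4, with adjusted p from 0.0714 to 0.172. It was also lost with edgeR on summed allelic counts (-0.16, adjusted p 0.228).

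The allelic counts of Tgfbr2 were 1634 maternal against 1575 paternal and 1875 against 1926 in Abl.2. They were 1076 against 866 and 870 against 737 in Abl.3, and 1907 against 1416 and 1669 against 1348 in Abl.4. Shares were 0.501 ± 0.011, 0.548 ± 0.0090 and 0.564 ± 0.015 (SD, n = 2), and those of Abl.3 and Abl.4 overlapped. By edgeR, the maternal allele was higher in Abl.4 (log2 ratio 0.37 ± 0.073 SE, adjusted p 0.00228) and in Abl.3 (0.28 ± 0.077, adjusted p 0.0143). The call in Abl.3 was lost without its replicate 1 (adjusted p 0.139) or replicate 2 (0.0573). In Abl.2 the ratio was 0.0066 ± 0.072 (adjusted p 0.952). By the same fit the allele ratio differed between Abl.2 and Abl.4 by -0.36 ± 0.10 (adjusted p 0.0272), a call lost without replicate 1 of Abl.2 (adjusted p 0.0784), replicate 2 of Abl.2 (0.199) or replicate 1 of Abl.4 (0.148), and with DESeq2 (0.0581).

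Smad2, the other receptor-activated Smad of the TGF-beta branch, was steady in level, at 52.05 and 54.09 TPM for Abl.2, 53.4 and 48.72 for Abl.3, and 48.52 and 51.39 for Abl.4. Abl.3 overlapped both other lines. None of its pairwise differences passed limma's test, with adjusted p of 0.484 to 0.807 and log2 differences of 0.03 to 0.09. Its maternal counts were below the paternal counts in each of the 6 libraries, from 177 against 237 in replicate 2 of Abl.3 to 303 against 380 in replicate 2 of Abl.2. Shares were 0.425 ± 0.026 for Abl.2, 0.439 ± 0.017 for Abl.3 and 0.469 ± 0.0045 for Abl.4 (SD, n = 2). By edgeR, the excess of the paternal allele passed in Abl.2 (log2 ratio -0.43 ± 0.15 SE, adjusted p 0.0314) and not in Abl.3 (-0.35, adjusted p 0.0835) or Abl.4 (-0.18, adjusted p 0.373). The call in Abl.2 was lost without its replicate 1 (adjusted p 0.314) or replicate 2 (0.101) and with DESeq2 (0.116), and no difference between lines passed.

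Smad4, the common partner of the activated Smads, was at 100.23 and 123.87 TPM for Abl.2, 82.67 and 85.44 for Abl.3, and 95.13 and 114.58 for Abl.4. The libraries of Abl.3 were below all others. None of the differences passed limma's test, the nearest being Abl.2 against Abl.3 (log2 0.40 ± 0.13 SE, adjusted p 0.0508). With the replicate block that difference passed (adjusted p 0.0112), as did the one between Abl.3 and Abl.4 (-0.31, adjusted p 0.0269). Its allelic share was not analysed here.

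Smad7, the inhibitory Smad that is itself induced by the pathway, was highest in Abl.4. Its level was 9.33 and 12.28 TPM for Abl.2, 7.93 and 8.96 for Abl.3, and 20.02 and 20.34 for Abl.4. Abl.4 stood clear of both other lines. By limma the log2 difference was -0.85 ± 0.15 (SE; adjusted p 0.00614) for Abl.2 against Abl.4 and -1.17 ± 0.15 (adjusted p 0.00179) for Abl.3 against Abl.4, and 0.31 ± 0.15 (adjusted p 0.141) for Abl.2 against Abl.3. Smad7 had the thinnest coverage of the members, down to 140 allelic counts in 1 library. Its shares were 0.553 ± 0.018, 0.543 ± 0.080 and 0.588 ± 0.017 (SD, n = 2), and none passed edgeR's test of imbalance (adjusted p 0.0881 to 0.454) or of a difference between lines (0.688 to 0.935).

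Skil encodes SnoN, a Ski-family repressor of Smad complexes. It was at 8.27 and 9.06 TPM for Abl.2, 3.67 and 6.43 for Abl.3, and 13.12 and 6.91 for Abl.4. The libraries of Abl.4 lay on both sides of those of Abl.2. None of its differences passed limma's test (adjusted p 0.0804 to 0.784), although that between Abl.3 and Abl.4 did without replicate 2 of Abl.4 (adjusted p 0.0412). The 2 libraries of Abl.4 had nearly the same number of allelic counts of Skil, 784 and 778, although their TPM differed. With edgeR on the summed allelic counts, Skil was lower in Abl.3 than in Abl.2 (log2 1.02 for Abl.2 against Abl.3, adjusted p 2.78e-04) and than in Abl.4 (-0.80 for Abl.3 against Abl.4, adjusted p 0.0016). Its shares were 0.567 ± 0.022, 0.497 ± 0.037 and 0.498 ± 0.070 (SD, n = 2), and none passed edgeR's test of imbalance (adjusted p 0.0599 to 0.966) or of a difference (0.257 to 0.990).

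**Figure D3:**
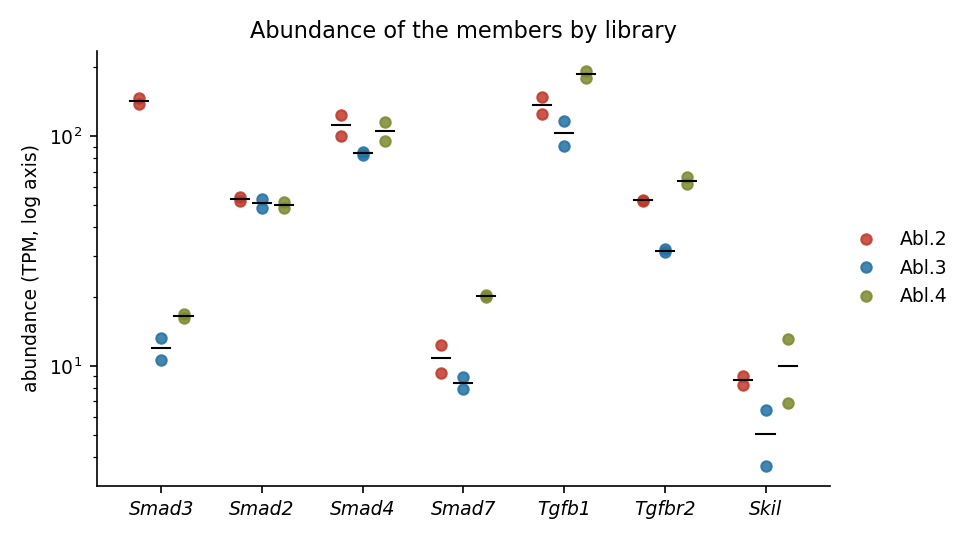
Points give the abundance of each of the 7 genes in TPM, on a log axis, for each library, and bars the line means (n = 2). Smad3 spans 10.59 to 145.72 TPM, whereas Smad2 stays between 48.52 and 54.09 TPM.

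**Figure D4:**
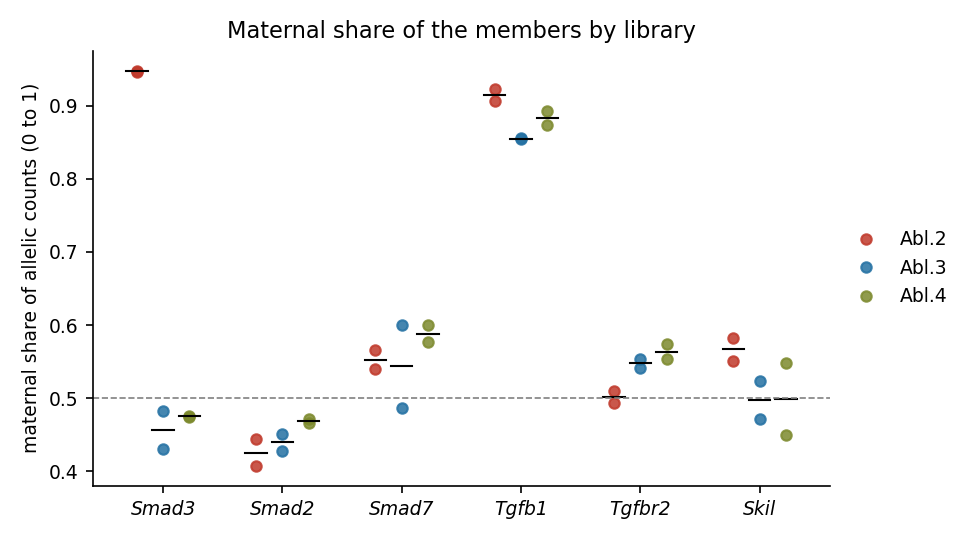
Points give the maternal share of allelic counts (0 to 1) in each library for the 6 genes with allelic counts, and bars the line means (n = 2). Smad3 is at 0.947 in Abl.2 and below 0.5 on average in the other lines, and Tgfb1 lies between 0.855 and 0.915 on average in all 3.

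Calls over the members other than Smad3 were set beside the share of all genes called in the same test. By edgeR 2 of 5 had unequal alleles in each line, against 49.1% of all genes for Abl.2, 45.1% for Abl.3 and 39.9% for Abl.4. By the same fit 1 of 5 differed in allele ratio between Abl.2 and Abl.3 (28.4% of all genes), 2 of 5 between Abl.2 and Abl.4 (22.3%), and 0 of 5 between Abl.3 and Abl.4 (16.5%). For the last pair Tgfb1 was the 1 member with an unadjusted p under 0.05 (0.0173), and DESeq2 also called 0. By limma 1 of 6 differed in abundance between Abl.2 and Abl.3 (39.8% of all genes), 2 of 6 between Abl.2 and Abl.4 (33.5%) and 3 of 6 between Abl.3 and Abl.4 (38.1%). The replicate block gave 3, 3 and 4 of 6 in the same order, beside 47.4%, 41.9% and 47.1% of all genes. The pairs share libraries and are not independent of each other. Between Abl.3 and Abl.4 the 3 called members (Tgfb1, Tgfbr2 and Smad7) were all lower in Abl.3, in a pair where 26.8% of all genes were lower and 11.3% higher.

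A wider list of 70 pathway genes was grouped by role, and 46 had a mean of at least 1 TPM. Without Smad3, limma called 20 of 45 between Abl.2 and Abl.3, 16 of them higher in Abl.2, beside 39.8% of all genes called and 25.9% higher. It called 15 of 45 between Abl.2 and Abl.4, 9 of them higher in Abl.2, beside 33.5% and 15.0% of all genes. It called 27 of 45 between Abl.3 and Abl.4, 7 higher and 20 lower in Abl.3, beside 38.1% of all genes called, 11.3% higher and 26.8% lower. After quantile normalization the last count was 18, again with 7 higher in Abl.3, beside 33.3% of all genes called, 17.3% higher and 16.0% lower. For Abl.2 against Abl.3 that normalization gave 18.8% of all genes higher and 17.8% lower, in place of 25.9% and 14.0%. The list includes Inhba and Bmpr2, which reached the minimum mean through Abl.2 alone, and without them the counts were 18, 13 and 26 of 43. The medians of the list, 0.34, -0.03 and -0.34 on the log2 scale, stood beside medians of 0.10, -0.03 and -0.15 over all genes.

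Among ligands and the proteins that activate them, 4 of 8 tested genes were called between Abl.2 and Abl.3, all higher in Abl.2, where 39.8% of all genes were called and 25.9% were higher. Between Abl.2 and Abl.4, 2 of 8 were called, 1 in each direction, beside 33.5% of all genes. The replicate block called 4 of 8 there (1 higher, 3 lower in Abl.2), and quantile normalization 4 of 8 (2 in each direction). With edgeR on summed allelic counts 7 of 10 were called (2 higher, 5 lower), and leaving out replicate 2 of Abl.3 also raised the count. After quantile normalization 34.7% of all genes were called in this pair, 18.3% higher and 16.4% lower in Abl.2. Shares of all genes in this pair are given above for the block and below for edgeR. Between Abl.3 and Abl.4, 5 of 8 were called, all lower in Abl.3, beside 38.1% of all genes called and 26.8% lower. In that pair the replicate block called 6 of 8 (1 higher, 5 lower in Abl.3) and quantile normalization 4, all lower. The shares of all genes under both are given above. Fewer were called without replicate 2 of Abl.4, and leaving out replicate 1 of Abl.4 added a call higher in Abl.3. The replicate block called 7 of 8 in the first pair, of which 6 were higher and 1 lower in Abl.2, beside 47.4% of all genes. Leaving out either library of Abl.4 raised the main count of the first pair and added a call lower in Abl.2. Leaving out replicate 1 of Abl.2 or replicate 2 of Abl.3 lowered the main count. With edgeR on summed allelic counts 7 of 10 were called in the first pair (6 higher, 1 lower), beside 40.4% of all genes. Tgfb3, another TGF-beta isoform, was at 49.19 and 49.05 TPM for Abl.2, 0.06 and 0.07 for Abl.3, and 246.29 and 224.72 for Abl.4. By limma the log2 difference was 5.56 ± 0.094 (SE; adjusted p 1.58e-06) for Abl.2 against Abl.3 and -2.24 ± 0.094 (adjusted p 1.93e-05) for Abl.2 against Abl.4. Inhba, which encodes an activin subunit, was at 4.24 and 5.19 TPM in Abl.2 and at most 0.83 TPM in any library of the other lines. It reached the minimum mean of 1 TPM through Abl.2 alone, so no test is given. Without Inhba, 3 of 7 were called between Abl.2 and Abl.3 and 1 of 7, lower in Abl.2, between Abl.2 and Abl.4. The counts over 8 genes with the replicate block or quantile normalization include Inhba and are not given without it. Tgfb3 overlaps 3 and Inhba 2 annotated genes on the opposite strand, whose reads could have been counted with them.

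Among the receptors, 5 of 7 were called between Abl.3 and Abl.4, all lower in Abl.3, where 38.1% of all genes were called and 26.8% were lower. One of them was Bmpr2, which was below 1 TPM on average in both lines and reached the minimum through Abl.2, and without it 4 of 6 were called. Without Bmpr2, 2 of 6 were called between Abl.2 and Abl.3, both higher in Abl.2, beside 39.8% of all genes. Between Abl.2 and Abl.4 it was 2 of 6, both lower in Abl.2, beside 33.5%. Those lower calls did not both hold with any library left out, and neither held without replicate 1 of Abl.2. With Bmpr2, the first pair's 3 of 7 (all higher) became 5 of 7 after quantile normalization (3 higher, 2 lower). With edgeR on summed allelic counts it was 6 of 8 (4 higher, 2 lower). Leaving out either library of Abl.4 also raised it and added a lower call. For Abl.3 against Abl.4 the 5 with Bmpr2 fell to 2 after quantile normalization or without replicate 1 of Abl.3 and to 3 without replicate 2 of Abl.3 or replicate 2 of Abl.4, and edgeR on summed allelic counts called 3 lower and 1 higher. Over all genes the shares called were 33.3% after quantile normalization, 36.9% with edgeR, and 21.2%, 21.3% and 27.2% without these 3 libraries in turn. Eng, the co-receptor endoglin, was at 104.76 and 97.69 TPM for Abl.2, 18.96 and 23.63 for Abl.3, and 121.23 and 115.32 for Abl.4. Its maternal counts were 0 in both libraries of Abl.3, against 318 and 259 paternal counts, which allows a share of up to 0.00943 and 0.0116 by counting error (3 counts of the total), while its shares were 0.448 ± 0.011 for Abl.2 and 0.495 ± 0.0030 for Abl.4 (SD, n = 2). The paternal part of its TPM was 55.9 ± 1.69, 21.3 ± 3.30 and 59.7 ± 2.46 in Abl.2, Abl.3 and Abl.4. Eng overlaps 4 annotated genes.

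Bmpr2, a type II receptor for bone morphogenetic proteins, was at 6.94 and 6.33 TPM for Abl.2, 0.04 and 0.15 for Abl.3, and 0.72 and 1.00 for Abl.4. Since it entered the test through Abl.2 alone, no test is given. Its allelic counts in Abl.2 were 13 maternal against 198 paternal and 19 against 223.

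Among Smad partners and regulators, limma called 9 of 18 between Abl.2 and Abl.3 (8 higher in Abl.2), 2 of 18 between Abl.2 and Abl.4 (1 in each direction) and 8 of 18 between Abl.3 and Abl.4 (7 lower in Abl.3), beside 39.8%, 33.5% and 38.1% of all genes. Ski, the corepressor related to Skil, was at 10.22 and 13.78 TPM for Abl.2, 3.76 and 3.50 for Abl.3, and 9.85 and 9.34 for Abl.4. Its share in Abl.2 was 0.999 ± 0.00041 (SD, n = 2), but Ski lies on chromosome 4, where the median share over 554 genes was 0.998 in Abl.2. Bambi, a pseudoreceptor that blocks signalling, was at 3.79 and 3.61 TPM for Abl.2, 1.40 and 1.14 for Abl.3, and 16.93 and 14.36 for Abl.4. Its shares were 0.0053 ± 0.0075, 0.189 ± 0.053 and 0.667 ± 0.0041 in the same order (SD, n = 2), and replicate 1 of Abl.2 had 0 maternal of 332 counts, which allows a share of up to 0.00904. By edgeR the log2 allele ratio of Bambi differed by -3.07 ± 0.37 (SE; adjusted p 1.69e-04) between Abl.3 and Abl.4. By limma its log2 abundance difference in that pair was -2.87 ± 0.15 (adjusted p 4.97e-05). Ppm1a, a phosphatase reported to act on Smad2 and Smad3, had shares of 0.470 ± 0.0011 for Abl.2, 0.232 ± 0.035 for Abl.3 and 0.227 ± 0.0082 for Abl.4, at levels of 34.3 ± 2.03, 34.9 ± 0.76 and 41.0 ± 1.34 TPM. By edgeR the log2 allele ratio of Ppm1a was higher in Abl.2 than in Abl.3 by 1.55 ± 0.20 (SE; adjusted p 1.35e-04) and than in Abl.4 by 1.59 ± 0.20 (adjusted p 1.26e-04). Usp15, a deubiquitinase of the pathway, lies on chromosome 10, where the median share over 431 genes was 0.337 in Abl.2. It was at 71.6 ± 6.65 TPM in Abl.2 and 33.1 ± 0.50 in Abl.3 (limma log2 difference 1.09 ± 0.093 SE, adjusted p 3.11e-04).

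Among genes known as targets of the pathway, 7 of 8 were called by limma between Abl.2 and Abl.4, 6 of them higher in Abl.2, beside 33.5% of all genes called and 15.0% higher. Between Abl.3 and Abl.4, 7 of 8 were called and 6 were higher in Abl.3, beside 38.1% and 11.3% of all genes. Between Abl.2 and Abl.3, which differed most in Smad3, 4 of 8 were called and 1 was higher in Abl.2, beside 39.8% and 25.9% of all genes. With the replicate block that pair had 6 of 8 called, 3 in each direction, beside 47.4% of all genes. Id3, an inhibitor of DNA binding, was at 455.47 and 456.87 TPM for Abl.2, 408.83 and 367.55 for Abl.3, and 112.89 and 99.98 for Abl.4. Id2, of the same family, had a mean of 102.4 ± 4.62, 87.7 ± 5.61 and 44.2 ± 0.38 TPM, and Id1 one of 1.63 ± 0.42, 7.25 ± 1.44 and 5.81 ± 0.12 TPM (SD, n = 2). Id1 was lowest in Abl.2, by limma differences of -1.65 ± 0.19 (SE; adjusted p 9.96e-04) against Abl.3 and -1.38 ± 0.19 (adjusted p 0.00227) against Abl.4. The second call was lost with edgeR on summed allelic counts (-1.74, adjusted p 0.0872).

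The cell-cycle inhibitor Cdkn2b was at 26.89 and 25.26 TPM for Abl.2, 31.59 and 27.08 for Abl.3, and 4.34 and 5.40 for Abl.4. Its shares were 0.998 ± 0.0014, 0.220 ± 0.000058 and 0.424 ± 0.064 (SD, n = 2), and it also lies on chromosome 4. Cdkn1a, which encodes the inhibitor p21, was highest in Abl.3 with 345.0 ± 18.1 TPM, against 168.9 ± 11.5 in Abl.2 and 106.1 ± 19.7 in Abl.4. Its maternal shares were 0.675 ± 0.0072, 0.713 ± 0.0059 and 0.643 ± 0.044 for Abl.2, Abl.3 and Abl.4. Junb, a subunit of the AP-1 factor, was at 205.8 ± 29.7, 212.0 ± 27.6 and 101.8 ± 19.1 TPM, with shares of 0.476 to 0.479. Gadd45b, a stress-response gene, was at 43.8 ± 2.88 TPM for Abl.2, 21.0 ± 1.27 for Abl.3 and 32.9 ± 1.61 for Abl.4. Among the targets named here, Gadd45b was the 1 whose line means had the order of Smad3, and it lies on chromosome 10, whose median share in Abl.2 is given above.

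Genes most like Smad3 were sought by distance over the 6 libraries, leaving out chromosomes 4, 10 and X for shares. By maternal share, the nearest of 7494 genes were Bmpr1a (a receptor for bone morphogenetic proteins, Euclidean distance 0.0429), Arhgef12 (0.0530) and Rnf113a2 (0.0599). Bmpr1a had shares of 0.952 ± 0.011, 0.471 ± 0.038 and 0.455 ± 0.023, yet levels of 7.01 ± 0.95, 8.95 ± 0.83 and 11.6 ± 0.24 TPM in Abl.2, Abl.3 and Abl.4 (SD, n = 2). Arhgef12 was likewise lowest in Abl.2, at 1.90 ± 0.31 against 4.15 ± 0.30 and 4.88 ± 0.68 TPM. In line means both genes were thus lowest where Smad3 was highest. Between Abl.3 and Abl.4 they were higher in Abl.4, as Smad3 was. By log2 abundance centred on the gene mean, the nearest of 8924 genes were Slc5a9 (distance 0.283), Spry1 (0.328) and Tnfsf11 (0.592).

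Spry1, which encodes a Sprouty inhibitor of receptor tyrosine kinase signalling and lies on chromosome 3, was like Smad3 in both measures. It was at 326.4 ± 27.4 TPM for Abl.2, 24.6 ± 1.71 for Abl.3 and 32.3 ± 3.42 for Abl.4, with shares of 0.954 ± 0.0042, 0.536 ± 0.025 and 0.576 ± 0.016 (SD, n = 2). Its maternal part was 311.4, 13.2 and 18.6 TPM and its paternal part 15.1, 11.4 and 13.7 TPM on average. In all, 89 genes outside chromosomes 4, 10 and X with a mean of at least 1 TPM were strongly biased in Abl.2 (share at most 0.1 or at least 0.9) and within 0.3 to 0.7 in both other lines, 55 of them to the maternal allele. Of these, 76 had a lower mean TPM in Abl.2 than in each other line and 5 a higher one. At least 2-fold higher were 3 genes, Spry1 (10.1 times the higher of the other lines), Smad3 (8.60) and Fam160a1 (2.58), and 27 were at least 2-fold lower. These counts describe a choice made on the shares, carry no test and have no share over all genes beside them.

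**Figure D5:**
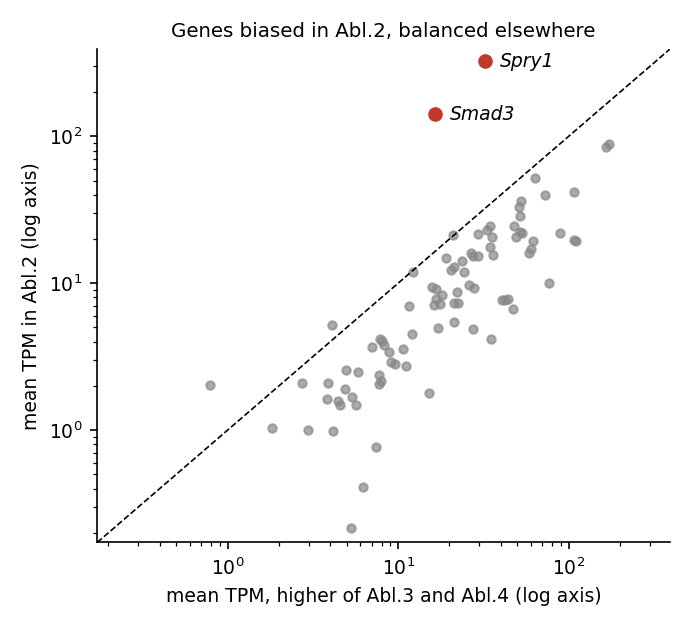
Each of the 89 genes biased in Abl.2 and balanced in the other lines is placed by its mean TPM in Abl.2 and the higher mean TPM of Abl.3 and Abl.4, both on log axes, and the dashed line marks equal levels. Smad3 and Spry1 lie far above the line, and most genes lie below it.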

How the data were processed

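The 7 genes were matched by symbol, and the members, the pathway list of 70 genes and the marker lists were chosen with earlier results of these data known. Per the labels' protocols, bead-purified and DNase-treated RNA went into SMART-seq v4 libraries. The authors deposited counts of maternal and paternal reads per gene at SNP positions, per the file headers. Per the file headers, the authors derived the TPM with DESeq2. The deposited maternal fractions carry the authors' confidence limits, per the file headers. The submitters' processing notes name STAR 2.5.4a, SAMtools, GATK and DESeq2 and several builds, without their roles. Of 35412 positioned genes, 98.2% had the coordinates of GENCODE M21 (GRCm38). The reads carry no molecular identifiers, so intervals and limits cover counting error only, and it was not stated whether a read over several SNPs was counted once.

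Allelic counts were tested in R 4.3.3 with edgeR 4.0.16 (quasi-likelihood) in 1 fit over the 6 libraries, with 1 intercept for each library and 1 allele term for each line. The minimum was 20 allelic counts in every library, which left 8702 autosomal and X genes. Log2(TPM + 1) was tested with limma 3.58.1 (eBayes with trend) in 11003 genes whose mean reached 1 TPM. Benjamini-Hochberg adjustment covered all genes tested, and the threshold was 0.05. Splitting TPM by the allele share assumes that reads over SNPs represent the gene. Other list genes were named if called for abundance with a log2 difference of at least 1, or for allelic difference with a share difference of at least 0.2, in any pair. Likeness used genes of the allelic test, and for abundance a mean of at least 5 TPM. Same-numbered libraries correlated by 0.104, 0.187 and 0.161 over the pairs of lines in deviations of log2 abundance and by -0.056 to 0.0151 in those of the share. The numbers may therefore pair libraries for abundance, from the data and not the labels. The main limma fit had a term for line only and took no account of this. The replicate block was fitted as an alternative. Blocked values stand beside members' abundance results whose call they change, and beside some counts of list genes. Alternatives were other minimums, pseudocounts and normalizations, DESeq2 1.42.0 and edgeR with TMM on summed allelic counts, a replicate block and leaving out each library.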

Additional observations from a re-analysis of the deposited data

Results flagged for a closer look

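Some genes differed between lines in maternal share by a test of the difference itself, and they are given here as differences of mean shares, first line minus second. Among the members, Tgfb1 had a difference of 0.0595 for Abl.2 against Abl.3 and of 0.0315 for Abl.2 against Abl.4, and Tgfbr2 one of -0.0623 for Abl.2 against Abl.4. For Smad3 the share of Abl.2 was higher by 0.491 than that of Abl.3 and by 0.472 than that of Abl.4. The Smad3 differences were not tested, since the gene was chosen for them.

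Among receptors of the pathway list, Eng had 0.448 for Abl.2 against Abl.3 and -0.495 for Abl.3 against Abl.4. Bmpr1a differed by 0.481 and 0.496 between Abl.2 and each of Abl.3 and Abl.4. Among regulators, Ski differed by 0.478 and 0.456 and Ppm1a by 0.237 and 0.243 in the same pairs. Bambi had -0.661 for Abl.2 against Abl.4 and -0.478 for Abl.3 against Abl.4. Among targets, Cdkn2b had 0.777 for Abl.2 against Abl.3, 0.574 for Abl.2 against Abl.4 and -0.204 for Abl.3 against Abl.4, and Gadd45b had -0.276 for Abl.2 against Abl.3. Ski and Cdkn2b lie on chromosome 4 and Gadd45b on chromosome 10, whose median shares in Abl.2 were 0.998 and 0.337. The difference of Cdkn2b between Abl.3 and Abl.4 was not called without replicate 1 of Abl.3 (adjusted p 0.0508) or replicate 1 of Abl.4 (0.0508).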

How the results depend on the processing

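Among single genes, 971 results under an alternative kept their direction and side of the threshold, 28 lost a call, 23 gained one and 20 reversed; the reversed ones were not called to begin with, and the cause was not tested. Alternatives that moved a count of called members (other than Smad3), or moved a count of list genes by over 1.5 times, were these. For abundance between Abl.2 and Abl.3, 1 member was called (39.8% of all genes), and 3 with edgeR on summed allelic counts (40.4%). A minimum of 5 TPM gave 3, with no share of all genes given beside it. The count also moved with a library left out. Between Abl.2 and Abl.4, 2 members (33.5% of all genes) became 3 after quantile normalization (34.7%). A minimum of 5 TPM also gave 3, again with no share beside it, and the count moved with a library left out. The list's 15 of 45 became 25 of a partly different 45 with edgeR (33.5% and 37.2% of all genes). Between Abl.3 and Abl.4, 3 members (38.1% of all genes) became 4 with edgeR (36.9%), and the count also moved with a library left out. For the allelic difference between Abl.2 and Abl.4, 2 members became 1 with DESeq2 and 0 to 2 with a library left out. Between Abl.3 and Abl.4, 0 members became 0 to 1, and the list's 10 of 35 (16.5% of all genes) became 6 with DESeq2 (13.1%) and 3 to 7 with a library left out (11.9% to 15.2%), with 3 without replicate 1 of Abl.3 and 4 without replicate 2 of Abl.3 or replicate 1 of Abl.4. For imbalance in Abl.2, 2 members (49.1% of all genes) became 1 with DESeq2 (42.1%). With a library left out, the counts of members in Abl.2 and Abl.3 also moved. The list's 19 of 35 in Abl.2 (49.1% of all genes) became 10 to 20, with 10 without replicate 2 (36.8%) and 11 without replicate 1 (37.5%) of Abl.2.

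With the replicate block the numbers of members called for abundance were 3 for Abl.2 against Abl.3, 3 for Abl.2 against Abl.4 and 4 for the last pair, up from 1, 2 and 3. The shares of all genes called under the block in these pairs were 47.4%, 41.9% and 47.1%. For the allelic difference between Abl.3 and Abl.4 the block called 1 (Tgfb1), against 0, beside 15.4% and 16.5% of all genes. It changed no other call of a member.

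Reversed log2 values, with the range over left-out libraries, were for abundance Smad2 between Abl.2 and Abl.3 (-0.054 after quantile normalization, -0.0090 to 0.12), then Skil (0.21 with edgeR, -0.55 to 0.29), Smad2 (-0.0095 with edgeR) and Smad4 (-0.058 to 0.24) between Abl.2 and Abl.4, and Smad2 between Abl.3 and Abl.4 (-0.033 with edgeR, -0.035 to 0.095). With a library left out they were, for the allelic difference, Smad2 (-0.19 to 0.024) and Smad7 (-0.28 to 0.38) between Abl.2 and Abl.3, and Skil (-0.29 to 0.28) and Smad7 (-0.59 to 0.068) between Abl.3 and Abl.4. For imbalance they were Tgfbr2 in Abl.2 (-0.039 to 0.053), Skil (-0.16 to 0.13) and Smad7 (-0.078 to 0.58) in Abl.3, and Skil in Abl.4 (-0.30 to 0.28). Smad7 had as few as 140 allelic counts in a library, and TPM keep no depth.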

Other observations

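Beside the ligands described above, Lrrc32, which encodes a surface carrier of latent TGF-beta and was named here after its values were seen, favoured the paternal allele in all 3 lines. Its maternal shares were 0.034 ± 0.048 for Abl.2, 0.080 ± 0.019 for Abl.3 and 0.184 ± 0.075 for Abl.4 (SD, n = 2), at 0.295 ± 0.092, 0.680 ± 0.085 and 1.86 ± 0.42 TPM. Replicate 1 of Abl.2 had 0 maternal of 29 counts, which allows a share of up to 0.103, so no ratio is given for that line. By edgeR with Benjamini-Hochberg adjustment the imbalance of Lrrc32 passed in Abl.2 (adjusted p 2.37e-04), and its log2 allele ratio was -3.49 ± 0.49 (SE; adjusted p 2.06e-04) in Abl.3 and -2.14 ± 0.40 (adjusted p 0.00162) in Abl.4. Acvr1, a type I receptor also named after its values were seen, favoured the maternal allele, with shares of 0.987 ± 0.018, 0.966 ± 0.0024 and 1.00 in both libraries of Abl.4 (0 paternal of 199 and 157 counts, which allows a paternal share of up to 0.0151 and 0.0191), at 3.06 ± 0.42, 4.70 ± 0.31 and 4.38 ± 0.77 TPM. Of 35 list genes tested without Smad3, 5 were called in every line with 1 direction, Acvr1, Cdkn1a and Tgfb1 to the maternal and Lrrc32 and Tgfbrap1 to the paternal allele. Among all 8702 genes tested, 20.5% were called in this way. Tgfbrap1, a receptor-associated protein, had shares of 0.446 ± 0.018, 0.344 ± 0.017 and 0.427 ± 0.022 (SD, n = 2). Bambi was also called in every line, to the paternal allele in Abl.2 and Abl.3 and to the maternal allele in Abl.4.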
